A study of Pinctada imbricata with 5 samples.

Results

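Of the 19415 unigenes (assembled transcripts) listed in tag profiles of the oyster pearl sac, 567 were counted at 2 or more separate CATG positions, and their use of those positions is described here. A unigene was taken when at least 2 of its positions, called tag sites, each had 20 or more copies summed over the 5 libraries. The very abundant Unigene51171 was left out. The unigenes were thus chosen by the copies of their sites, so their levels and the existence of a second site are a description and not a finding. The 567 unigenes had 1230 used sites, out of 24599 sites listed for all unigenes. Sites are numbered from the 3′ end of the unigene, so that site 1 is the CATG nearest to it.

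The pearl sac is the epithelial pouch that forms around an implanted nucleus and secretes the pearl. The libraries were made 10, 15, 20, 30 and 60 days after surgical implantation, from oysters of 1.5 years whose species is Pinctada imbricata in the sample labels and Pinctada martensii in the series title. No treatment, strain or genotype is given besides the implantation, and the number of sacs behind a library is not stated. There was 1 library per day, so that a difference between days cannot be told apart from one between the oysters or the library preparations, and no test between days was possible. Except for those of the median shares, all intervals are exact 95% Clopper-Pearson intervals, which cover counting error only. In whole tissue, fewer cells of a type and less RNA per cell cannot be told apart either.

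In tag profiling of this kind, complementary DNA is held by its poly(A) tail, an enzyme cuts it at CATG, and the piece next to the cut nearest the tail is sequenced as a short tag. A transcript that ends early at another polyadenylation site, a cut that is missed, or priming on an internal run of A bases are known ways for a tag to come from a site farther from the 3′ end. In animals many genes have several polyadenylation sites, and the choice between them sets which 3′ untranslated sequence the messenger RNA carries. This list is not complete, and which way holds for any unigene described here was not tested. The distance in bases between sites is not known because the transcript sequences were not used here.

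The tags below are those of the unigenes whose leading site switched between days, shown so that the sites can be told apart. Each is the most abundant tag of its site, 5′ to 3′, and the capitals mark the CATG cut site. The 8 switching unigenes with a named protein match come first, and then the 8 most abundant of the other switching unigenes.
Unigene87160 site 1: CATGttgttctacatttagtt
Unigene87160 site 2: CATGctaaccggcatcttcca
Unigene75762 site 1: CATGcccaggaagaagtgaag
Unigene75762 site 2: CATGgaggatctctatgtcaa
Unigene85712 site 1: CATGaaaaaaaaaaacctttg
Unigene85712 site 2: CATGgtagtcccagaagaact
Unigene20327 site 1: CATGttaatttcataatatca
Unigene20327 site 3: CATGctgtcctctgtcaatct
Unigene1796 site 1: CATGtatagaggaggagatga
Unigene1796 site 2: CATGtctgatggctgtggatc
Unigene81263 site 1: CATGgcgatttttccgagcca
Unigene81263 site 2: CATGttttagtgacgtccggc
Unigene91887 site 1: CATGgctatttgccgtgcgcg
Unigene91887 site 3: CATGattgtgtgatatttgaa
Unigene13773 site 1: CATGgacattcttcagcctct
Unigene13773 site 2: CATGacgtttgaaggaacgta
Unigene10720 site 1: CATGtaattttgggagaggta
Unigene10720 site 2: CATGaacccaaggcacaaagt
Unigene26023 site 1: CATGtctttccttacaacctc
Unigene26023 site 2: CATGacgtattataacttaaa
Unigene77444 site 1: CATGctgatcatttatgtgac
Unigene77444 site 2: CATGcttggctgcttggcaga
Unigene87983 site 1: CATGtatgacatcgacattcc
Unigene87983 site 2: CATGcagtgggctcagaagag
Unigene74949 site 1: CATGgataaataggacttgtc
Unigene74949 site 2: CATGaggtgcaagatgctttg
Unigene85964 site 1: CATGgagatgaactgcatcca
Unigene85964 site 2: CATGcaacctgttgttgtaca
Unigene70312 site 1: CATGtttgaaatgccattgtg
Unigene70312 site 2: CATGaaggatatgcttaaata
Unigene37807 site 1: CATGaataaatattgtctttt
Unigene37807 site 2: CATGtctataaatagatttgg

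The listed copies of a library came to between 600848 and 1339346, 12.8% to 28.0% of recovered totals of 4700927 to 4784094 tags, and the smallest listed tag had 2 copies. A site written with 0 copies is one that the library did not list. Against markers of pearl sac and mantle epithelium, 28 unigenes matched, of which between 9 (day 60) and 24 (day 10) were listed per library. Matches to shematrin, aspein, prismalin and MSI were absent. Marker copies summed to 2545, 497, 964, 3704 and 451 on days 10, 15, 20, 30 and 60, so the sums were highest in the day 10 and day 30 libraries. Single unigenes weigh much in these sums. Site 2 of Unigene1470, a tyrosinase match, had 1117 copies on day 10 and 2606 on day 30. Not every marker followed the sum, since site 3 of Unigene89281, a mantle gene match, had 399 copies on day 20 and 6 and 0 on days 10 and 30. Whether a differing makeup of the tissue has a part in the site use described here was not tested.

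Most of the 567 unigenes had exactly 2 used sites. There were 486 with 2, 69 with 3, 9 with 4 and 3 with 5 used sites. In 332 of the 486 the used sites were numbers 1 and 2, and in 362 they were neighbours in number. The used site nearest the 3′ end was number 1 in 508 unigenes, number 2 in 27 and a higher number in 32. A unigene of this kind had a median of 261 copies over the 5 libraries, with a lowest of 42 and a highest of 78473, against a median of 61.5 copies for the 5356 unigenes with exactly 1 used site. The rule itself asks for more copies, so nothing is read from that difference. Together the 567 held 625896 copies, 23.7% of the listed copies without Unigene51171.

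The most abundant site over all days was the one nearest the 3′ end in 370 of the 567 unigenes (65.3%). It was site number 1 in 342 of the 567 (60.3%), against 4553 of the 5356 unigenes with 1 used site (85.0%). In pooled copies, site 1 held 81.4%, 71.6%, 74.6%, 81.8% and 67.7% in the 567 unigenes on days 10, 15, 20, 30 and 60. In all other unigenes without Unigene51171 it held 90.1%, 86.2%, 87.2%, 89.2% and 90.8%. The pooled share was thus lower in the 567 in every library, and a second used site lowers it by the way they were chosen. A protein match was given for 96 of the 567 (16.9%) and for 1081 of the 5356 (20.2%). It named a protein in 65 (11.5%), against 684 (12.8%).

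At the threshold, 24 unigenes had a second site with exactly 20 copies and 38 others had one with 19. Just inside, Unigene43640 had 2, 10, 0, 2 and 6 copies at site 2 on days 10, 15, 20, 30 and 60, beside 281, 650, 112, 235 and 178 at site 1. Unigene84089 had 4, 3, 6, 2 and 5 at site 2, beside 178, 44, 258, 220 and 304 at site 1. In Unigene86341, which matches the beta subunit of electron-transfer flavoprotein, a mitochondrial electron carrier, all 20 copies of site 2 came from the day 30 library, where site 1 had 38. Just outside, Unigene19076, Unigene19931 and Unigene89707 each had 19 copies at their second site. Their site 1 had between 154 and 1528, between 164 and 522, and between 125 and 336 copies per library. These 6 are the most abundant at the threshold, and apart from the day 30 library of Unigene86341 nearly all their copies lay at site 1.

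The share of the site nearest the 3′ end was computed for each unigene with 20 or more copies in a library, over the copies of all its listed sites. That was possible for 407, 420, 384, 383 and 405 of the 567 unigenes on days 10, 15, 20, 30 and 60. Their median shares were 70.9%, 64.4%, 66.9%, 69.7% and 67.9% in that order. In the same order, the intervals of these medians were 64.9% to 77.7%, 57.1% to 71.0%, 61.7% to 74.2%, 62.7% to 77.9%, and 61.3% to 72.7%. These intervals were taken from the ranked shares and give the precision of each median over the unigenes of its library. They do not cover differences between oysters or library preparations. The site nearest the 3′ end held more than 50% of the copies in 260, 247, 240, 247 and 251 unigenes. Shares spread over the whole scale, with lower quartiles between 24.9% (day 15) and 37.9% (day 30) and upper quartiles between 91.4% (day 10) and 94.1% (day 30). It held 90% or more in 112 to 119 unigenes per library, and 10% or less in 45, 70, 58, 39 and 45.

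**Figure D1:**
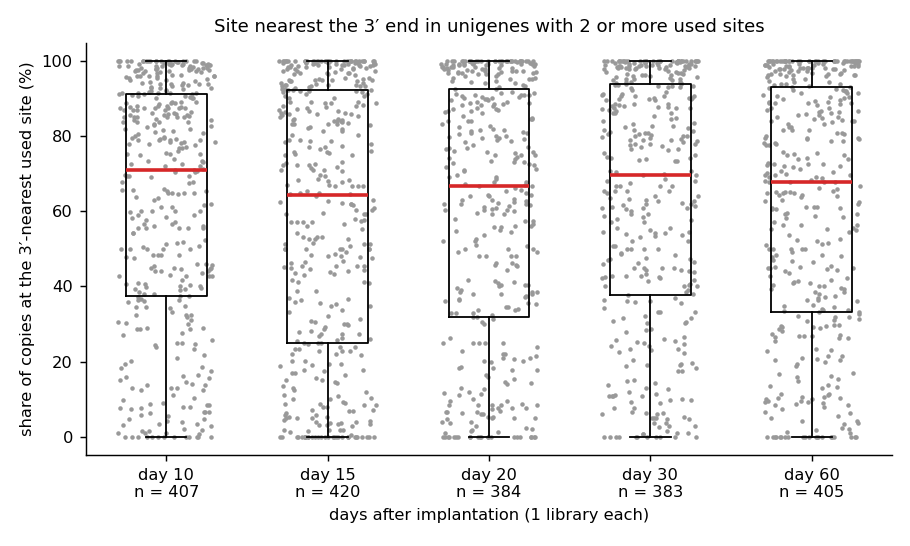
Share of a unigene's copies at its used site nearest the 3′ end, in percent (vertical axis), for each of the 5 libraries by day after implantation (horizontal axis). Each point is a unigene with 20 or more copies in that library, the red line is the median, the box spans the quartiles and the whiskers reach the lowest and highest share; the medians lie between 64.4% on day 15 and 70.9% on day 10, and shares run from 0% to 100% on every day.

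Pooled over these unigenes instead, the share was 83.0%, 76.7%, 78.3%, 83.9% and 69.8%, where the day 60 library was lowest. Pooled copies weigh abundant unigenes most, such as Unigene13576 and Unigene6737, described below, which had nearly all their copies at site 1 on days 10 and 30. In the 251 unigenes with a share on all 5 days, the medians were 79.1%, 78.8%, 77.8%, 77.6% and 81.0%. Within a unigene, the gap between its highest and its lowest share over the 5 days had a median of 21.6 points. It was under 20 points in 114 of the 251 (45.4%) and 50 points or more in 55 (21.9%). Site use was thus similar in every library for many of these unigenes and moved over much of the scale in others.

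Between 2 days, a share was called shifted when it differed by 20 points or more and the intervals did not overlap. On day 15 against day 10, 29 of 332 unigenes shifted toward the 3′-nearest site and 49 away from it, 23.5% in all. Over all 1535 unigenes with a used site that were measured on both days, 5.86% shifted, and nothing is read from that gap, since a share can scarcely move where there is no second site. The fewest shifts were found on day 30 against day 10, with 31 toward and 24 away among 338 (16.3%, against 3.79% of all unigenes). The most were found on day 60 against day 15, with 61 toward and 37 away among 332 (29.5%, against 7.05% of all unigenes). Against day 10, day 20 had 21.6% (5.5% of all unigenes) and day 60 had 20.5% (4.75%). Against day 15, day 20 had 21.9% (5.47%) and day 30 had 24.6% (6.02%). Against day 20, day 30 had 21.5% (5.02%) and day 60 had 24.8% (6.02%), and day 60 against day 30 had 19.7% (4.38%). All 10 pairs thus lay between 16.3% and 29.5%. In all, 230 of the 474 unigenes with 20 or more copies on at least 2 days shifted between at least 1 pair of days. These pairs share libraries and are not independent of each other.

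A stricter change is a switch of the leading site, in which different sites each clearly held the majority (interval above 50%) on 2 days with 20 or more copies each. Of the 474 unigenes with 20 or more copies on at least 2 days, 80 switched between at least 1 pair (16.9%). Switches were fewest on day 30 against day 10, with 10 of 338 unigenes (2.96%), 7 of them to a site nearer the 3′ end. Over all measured unigenes 0.632% switched in that pair. They were most frequent on day 60 against day 15, with 39 of 332 (11.7%), 23 of them to a nearer site and 16 to a farther one, where 2.57% of all unigenes switched. In the other 8 pairs 18 to 31 unigenes switched (5.77% to 9.75%). Over all unigenes, 1.7% switched on day 20 and 1.46% on day 60 against day 10, 1.58% on day 20 against day 15, 1.33% on day 30 and 2.17% on day 60 against day 20, and 1.55% on day 60 against day 30. No unigene outside the 567 switched, which the rule nearly fixes, since a switch needs copies at 2 sites. On day 15 against day 10, 16 of 24 switches went to a farther site (1.56% of all unigenes switched), and on day 30 against day 15, 19 of 24 went to a nearer one (1.7%).

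**Figure D2:**
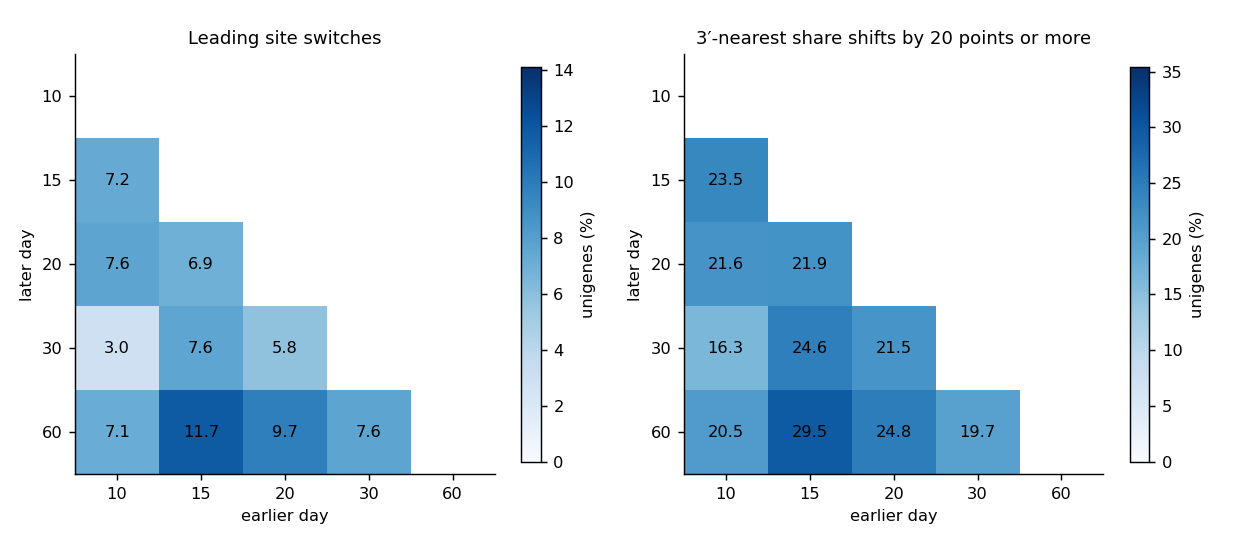
Percent of unigenes with 20 or more copies on both days whose leading site switched (left panel) or whose share of the 3′-nearest site shifted by 20 points or more (right panel), with the later day on the vertical axis and the earlier day on the horizontal axis, and the percent as colour and number. Day 30 against day 10 is lowest in both panels (2.96% and 16.3%) and day 60 against day 15 is highest in both (11.7% and 29.5%).

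The 80 switching unigenes gave 241 switches over the 10 pairs. In 171 of the 241 (71.0%) the unigene as a whole was called neither higher nor lower between those days, by the rule for levels described below. The same held in 80.8% of all pairs of days with 20 or more copies in the 567 unigenes and in 82.6% of those in all unigenes, so a missing call on the sum is nothing particular to the switches. In 26 of the 171 the sum was under the minimum level on both days and could not be called. A clear leading site was found on 3 or more days in 65 of the 80, and in 48 of these a single day stood against all the others. That day was day 60 in 18 unigenes, days 15 and 20 in 10 each, day 10 in 7 and day 30 in 3. Day 60 was the single day most often, and the number of unigenes with a clear lead was close to even over the days, at 51 to 54. A protein match was given for 12 of the 80 and named a protein in 8.

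Unigene87160 matches DAD1, a subunit of the oligosaccharyltransferase that attaches sugar chains to proteins in the endoplasmic reticulum. Its site 1 had 272, 62, 105, 322 and 289 copies and its site 2 had 33, 98, 27, 37 and 33 copies on days 10, 15, 20, 30 and 60. The share of site 1 was 38.8% on day 15 (interval 31.2% to 46.8%) and between 79.5% and 89.8% in the other libraries, the lowest bound of which was 71.7%. Only the day 15 library led with site 2. Summed over sites the scaled level was 0.424 times that of day 10 on day 15 (interval 0.348 to 0.515), which was not called.

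Unigene75762 matches the proteasome regulatory subunit 6B, an ATPase that unfolds proteins for degradation. It had 47, 980, 25, 3 and 70 copies at site 1 and 36, 0, 43, 0 and 0 at site 2. The day 20 library had 36.8% of its copies at site 1 (25.4% to 49.3%), against 100% on day 15 (interval from 99.6%). Day 60 again had 100% (from 94.9%) and day 10 had 56.6%, and day 30 had too few copies for a share. Site 2 was listed on days 10 and 20 only. The level over both sites was lower on day 20 than on day 15, at a ratio of 0.0893 (0.0688 to 0.114), and did not pass the rule between days 60 and 20.

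Unigene85712 matches the large subunit of U2AF, the factor that recognises the 3′ splice site of introns. Site 1 had 12, 18, 18, 49 and 21 copies, and site 2 had 125, 163, 2, 0 and 182. Its site 1 shares were 8.76%, 9.94%, 90% (68.3% to 98.8%), 100% (from 92.7%) and 10.3% in the order of days. The days 20 and 30 libraries stood apart from the other 3, and the change lay in site 2, while site 1 kept within 12 to 49 copies. The tag of site 1 holds a long run of A bases next to the cut site.

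Unigene20327 matches exosome component 2, part of the complex that degrades RNA from its 3′ end. It was counted at 3 sites. Site 1 had 43, 0, 12, 26 and 61 copies, site 2 had 14, 0, 0, 0 and 32, and site 3 had 0, 66, 10, 9 and 0. All 66 copies of day 15 lay at site 3, so the share of site 1 there was 0% with an upper bound of 5.44%. It was 75.4%, 54.5%, 74.3% and 65.6% on days 10, 20, 30 and 60. Over all sites day 15 had 0.935 times the scaled level of day 10 (0.646 to 1.36).

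Unigene1796 matches a BolA-related protein, a family with roles in iron-sulfur metabolism. Site 1 had 16, 3, 39, 19 and 33 copies and site 2 had 17, 73, 0, 5 and 40. The day 20 share of site 1 was 100% (from 91%), against 3.95% on day 15 (0.822% to 11.1%), and day 30 had 79.2% (57.8% to 92.9%). Days 10 and 60 were near an even split, at 48.5% and 45.2%, and had no clear lead.

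Unigene81263 matches isoprenylcysteine methyltransferase, which methylates the end of prenylated proteins such as Ras. It had 6, 68, 0, 0 and 31 copies at site 1 and 0, 0, 0, 35 and 0 at site 2. All copies lay at site 1 on days 15 and 60 and all 35 at site 2 on day 30, when the upper bound for site 1 was 10%. The exchange of sites was complete in these 3 libraries, at 68, 35 and 31 copies on days 15, 30 and 60. Neither ratio of levels was called, at 0.692 on day 30 against day 15 (0.447 to 1.06) and 0.672 on day 60 against day 30 (0.401 to 1.12).

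Unigene91887 matches SMARCC2, a subunit of SWI/SNF chromatin remodelling complexes. Site 1 had 9, 45, 13, 2 and 0 copies and site 3 had 9, 11, 6, 8 and 15. Its site 1 share was 0% on day 60 (up to 16.8%), against 75% on day 15 (62.1% to 85.3%). Unigene13773 matches RNA polymerase I, which transcribes ribosomal RNA. It had 19, 13, 16, 18 and 11 copies at site 1 and 0, 0, 0, 2 and 40 at site 2, so its share was 21.6% on day 60 (11.3% to 35.3%), against 90% on day 30 (68.3% to 98.8%). In both, a site farther from the 3′ end led on day 60, at low counts.

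Among the switching unigenes with no named match, Unigene10720 had the most copies. Its site 1 had 2373, 4083, 2, 1002 and 2900 copies and its site 2 had 134, 18, 121, 128 and 182. Site 1 held 94.7%, 99.6%, 1.63% (0.198% to 5.75%), 88.7% and 94.1% of the copies, so that only the day 20 library led with site 2. The unigene as a whole was lower on day 20 than on day 15, at a ratio of 0.0386 (0.032 to 0.0462), and higher on day 30 than on day 20, at 9.6 (7.96 to 11.7). The site 2 count of day 20 was within the range of the other days.

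In Unigene26023, Unigene37807 and Unigene70312, day 60 was the single day with another clear leading site. Day 10 of Unigene70312, near an even split, had no clear lead. Unigene26023 had 86, 64, 10, 207 and 321 copies at site 1 and 186, 513, 245, 307 and 174 at site 2, giving shares of 31.2%, 11.1%, 3.92%, 40.3% and 64.8%. In Unigene37807 the values were 36, 7, 34, 79 and 238 at site 1 and 213, 173, 134, 330 and 8 at site 2, and the share of site 1 was 96.7% on day 60 (93.7% to 98.6%), against 3.89% to 20.2% on the other days. Site 1 thus led on day 60 alone in both. Unigene70312 went the other way, with 116, 131, 638, 100 and 64 copies at site 1 and 124, 2, 2, 60 and 152 at site 2, and a site 1 share of 29.4% on day 60, against 48.3% to 99.2% on the other days. None of these 3 was called as a whole on day 60 against day 30, but Unigene70312 was lower on day 60 than on day 20, at a ratio of 0.269 (0.229 to 0.314).

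Unigene77444 differed on day 10. It had 36, 327, 689, 360 and 429 copies at site 1 and 137, 0, 15, 4 and 0 at site 2, with a share of 20.8% on day 10 and 97.9% to 100% later. Unigene85964 differed on day 20, with 182, 210, 98, 193 and 312 copies at site 1 and 51, 5, 149, 0 and 281 at site 2. Its share was 39.7% on day 20, 52.6% on day 60 and 78.1% to 100% on the remaining days, and its level on day 20 was 1.1 times that of day 10 (0.918 to 1.32).

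Unigene87983 divided the days in another way. Its site 1 had 121, 33, 495, 90 and 136 copies and its site 2 had 251, 643, 40, 65 and 86, for shares of 32.4%, 4.88%, 92.5%, 58.1% and 61.3%. Days 20 and 15 had almost the same level over both sites, at a ratio of 1.02 (0.908 to 1.14), with opposite leading sites. Unigene74949 had 851, 0, 0, 0 and 23 copies at site 1 and 527, 102, 201, 0 and 0 at site 2, so days 15 and 20 used site 2 alone and day 60 used site 1 alone, and its whole level was lower on each of those days than on day 10.

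**Figure D3:**
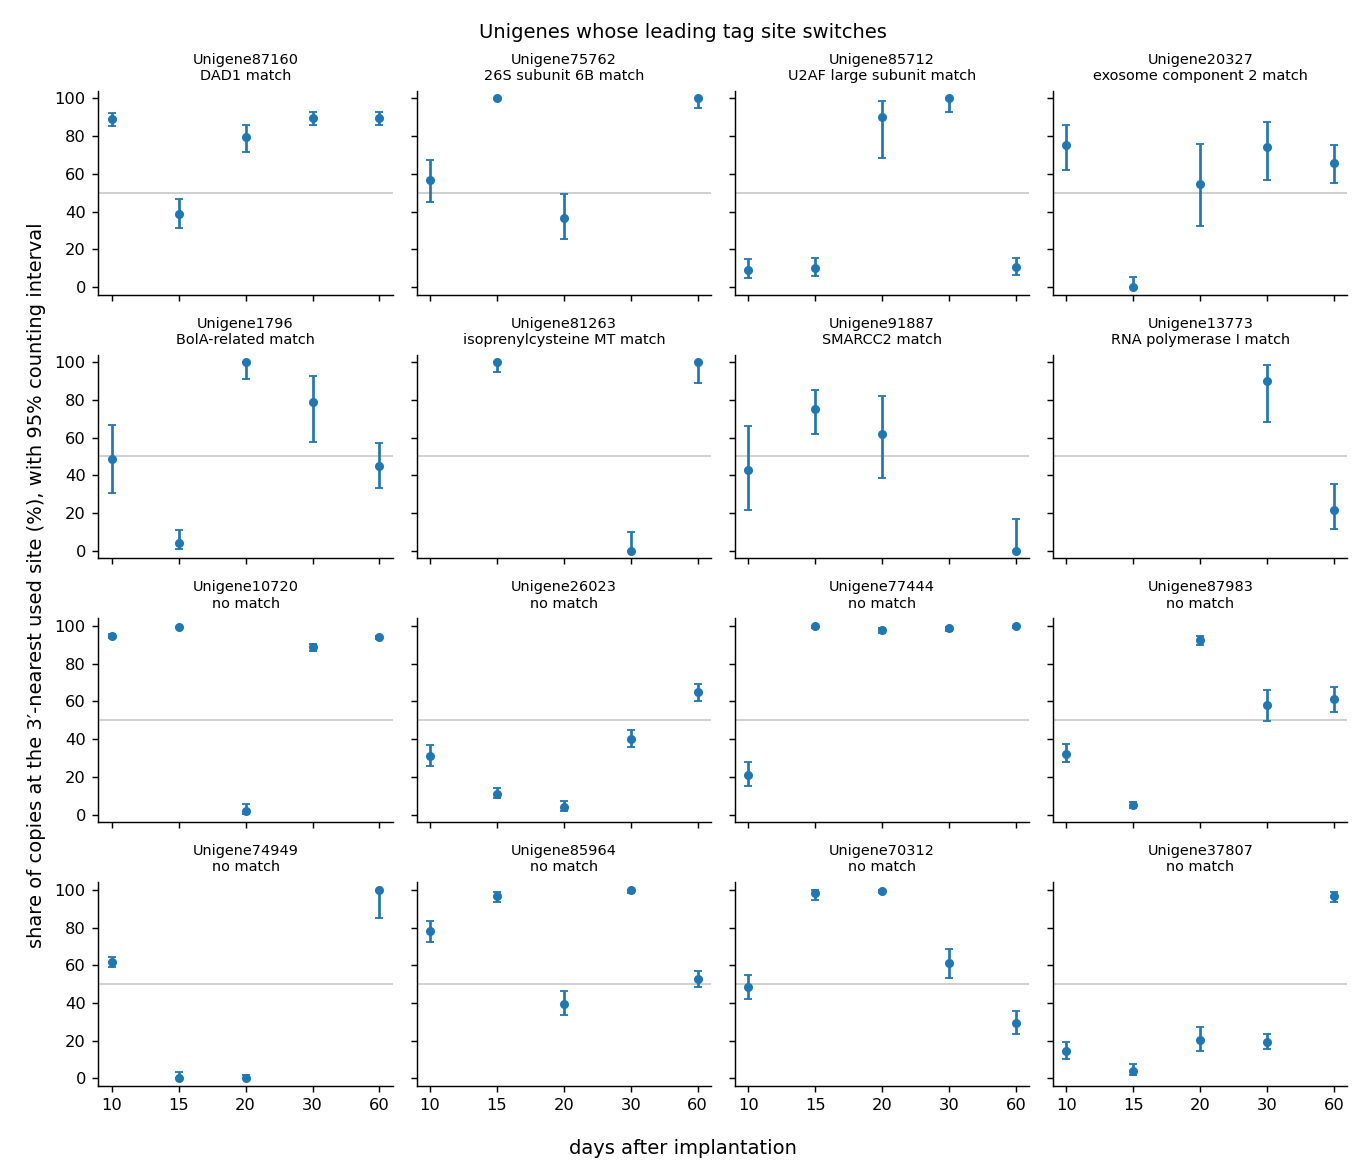
Share of copies at the 3′-nearest used site in percent (vertical axis) by day after implantation (horizontal axis, days evenly spaced) for 16 unigenes whose leading site switched, 8 with a named protein match above and 8 without below. Points are single libraries with 20 or more copies, bars are 95% counting intervals and the grey line is at 50%; day 15 stands alone below it in Unigene87160, and days 20 and 30 stand alone above it in Unigene85712.

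A complete exchange, with no copy listed at the other day's leading site, was found in 36 of the 241 switches, in 20 unigenes. An example with equal totals is Unigene69633, which has no match. It had 58, 0, 9, 33 and 188 copies at site 1 and 0, 188, 0, 0 and 0 at site 2. Day 15 stood alone, and its 188 copies equalled the number on day 60. Unigene11528, also without a match, was the only unigene with 3 different leading sites. Its site 1 had 0, 175, 4, 27 and 0 copies, its site 2 had 101, 9, 12, 106 and 69, and its site 3 had 32, 39, 6, 17 and 144. Site 2 led on days 10 and 30, site 1 on day 15 and site 3 on day 60.

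Levels of single sites were then compared between consecutive days and between day 60 and day 10. A site was called when the higher library had at least 10 scaled TPM, which is 41.3 to 55.5 copies, and the interval of the ratio lay wholly beyond 2-fold. Scaled TPM is the copies of a site relative to the recovered tag total, on the scale of the deposited TPM, divided by a scaling factor of the library. On day 15 against day 10, 88 of 367 used sites were higher (24.0%, against 21.2% of all sites) and 84 were lower (22.9%, against 25%). On day 20 against day 15, 103 of 371 were higher (27.8%, against 25.5%) and 100 lower (27.0%, against 27.8%). On day 30 against day 20, 72 of 343 were higher (21%, against 21.6%) and 66 lower (19.2%, against 19%). These shares lay close to those of all sites and are no result about the 567 unigenes.

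On day 60 against day 30, 54 of 326 sites were higher (16.6%, against 16.4%) and 69 lower (21.2%, against 16.7%). On day 60 against day 10, 44 of 334 were higher (13.2%, against 14.9%) and 77 lower (23.1%, against 20.3%). The balance of the calls depended on the scaling. With the scaling factors, higher calls made up 51.2%, 50.7%, 52.2%, 43.9% and 36.4% of all calls in the 5 comparisons, in the order given. With the recovered totals alone they made up 60.1%, 39.2%, 50.4%, 58.6% and 51.6%. The totals alone move every log2 ratio by 0.29, -0.37, -0.04, 0.39 and 0.28 in the same order, so the direction in which more sites moved is not read from them.

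A level summed over sites can move otherwise than that of the site nearest the 3′ end. On day 15 against day 10, 60 of 334 unigenes were higher as a whole (all unigenes: 20.3%) and 65 lower (all unigenes: 24%). Among these, the nearest site was called the same way in 80 and not called in 45, and in 16 unigenes the nearest site was called where the sum was not. As a whole, 91 were higher (25.2% of all unigenes) and 78 lower (27.2%) on day 20 against day 15, and 47 higher (20.2%) and 60 lower (18.7%) on day 30 against day 20. On day 60 there were 38 higher (15.6%) and 43 lower (15.4%) against day 30, and 30 higher (14.4%) and 55 lower (18.9%) against day 10. In these 4 comparisons the nearest site was called the same way in 50 to 113 and not called in 26 to 56. It was called the opposite way only on day 30 against day 20, in Unigene61127, which has no match, and Unigene67167, which matches a beetle protein of unknown role. Unigene61127 had 167 copies in all on day 30, against 559 on day 20, while its site 1 had 68, against 0. Unigene67167 had 152 copies on day 30, all at site 2, against 50 on day 20, all at site 1.

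Both sites of a unigene were seldom abundant enough to be compared. On day 15 against day 10, 76 unigenes had 2 or more sites at 10 scaled TPM, and in 8 of them 1 site was called higher and another lower (0.498% of all unigenes with a tested site). There were 8 such unigenes on day 20 against day 15 (0.511%), 6 on day 30 against day 20 (0.411%), 2 on day 60 against day 30 (0.137%) and 4 on day 60 against day 10 (0.26%). Together they were 22 unigenes, of which 16 were also among the 80 that switched. Where the nearest site was set against the most used other site on day 15 against day 10, both were called the same way in 20 of 74 unigenes, in opposite ways in 8, only 1 was called in 27 and neither in 19. Calls in the same direction thus outnumbered opposite ones there, and in the other comparisons they numbered 13 to 17, against 2 to 8 opposite ones.

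**Figure D4:**
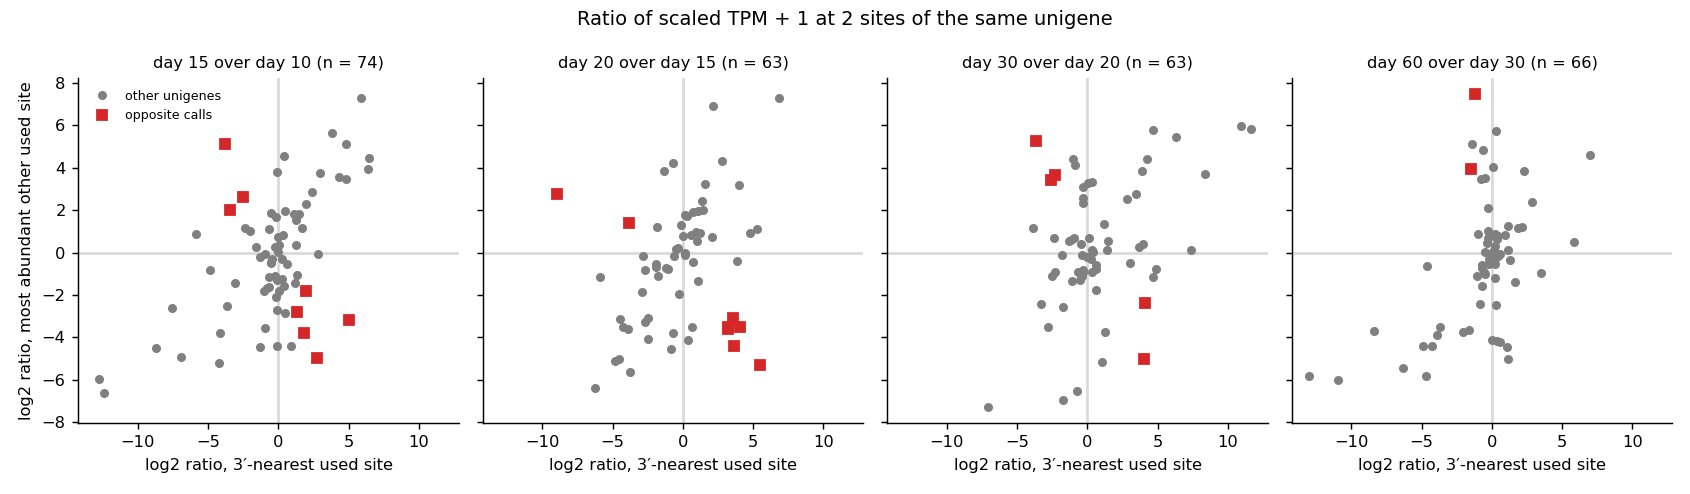
Log2 ratio of scaled TPM plus 1, later over earlier day, at the used site nearest the 3′ end (horizontal axis) and at the most abundant other used site (vertical axis), a point for each unigene, with a panel for each of the 4 consecutive comparisons. Red squares are unigenes with both sites called in opposite directions, 8 of 74 on day 15 against day 10 and 2 of 66 on day 60 against day 30, and they lie at the upper left and lower right of the panels.

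The most abundant unigene with opposite site calls was Unigene24153, which has no match. Site 1 had 7533, 4811, 8584, 6770 and 3983 copies and site 2 had 6, 14, 5, 5 and 2132. Its site 1 share was 99.5% to 99.8% on days 10 to 30 and 65.1% on day 60 (63.9% to 66.3%). On day 60 against day 30 the ratio was 0.446 at site 1 (0.429 to 0.464) and 324 at site 2 (138 to 998). Site 4 kept between 5 and 13 copies per library. Site 2 was thus high in the day 60 library alone. With the recovered totals in place of the scaling factors, the site 1 ratio was 0.583 on day 60 against day 30 and 0.527 on day 60 against day 10, neither of which was called, so the opposite call depends on the scaling, while site 2 stayed higher.
Unigene24153 site 1: CATGtgaaaataagcgatagc
Unigene24153 site 2: CATGtgatatttcttgtgaaa

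Unigene88049, whose match GK13389 is an uncharacterised fly protein, had 236, 1156, 296, 157 and 475 copies at site 1 and 67, 20, 8, 17 and 61 at site 2. On day 15 against day 10 site 1 was higher at a ratio of 3.96 (3.44 to 4.57) and site 2 lower at 0.241 (0.139 to 0.402). The minor site was thus lower on day 15, when the major site was highest. It was low on days 20 and 30 as well, with 8 and 17 copies, beside 296 and 157 at site 1. Unigene77266, without a match, moved in the other direction in the same comparison, with 1702, 190, 1402, 1354 and 1418 copies at site 1 and 9, 62, 0, 3 and 10 at site 2. Day 15 was low at site 1, with a ratio of 0.090 against day 10, and high at site 2, with 5.56 (2.75 to 12.7).

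The most abundant of the 567 unigenes were mostly used at 1 site. Unigene13576 had 31700, 0, 11, 46255 and 2 copies at site 1 and 273, 0, 0, 232 and 0 at its second site, and Unigene6737 had 24823, 0, 0, 8225 and 0, beside 430, 0, 0, 258 and 0. Neither has a match, and both were all but confined to the libraries of days 10 and 30, where the summed marker copies given above were also highest. Unigene38190, which matches a serine proteinase, a protein-cutting enzyme, had 15033 copies at site 1 on day 15 and 32, 0, 16 and 0 on days 10, 20, 30 and 60. Its site 3 was listed on day 15 only, with 38 copies. Site 3 was taken as used through the day 15 library alone, where the unigene was abundant.

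Unigene47491, which matches CREB, a transcription factor that answers to cyclic AMP, had 1381, 1927, 4083, 2014 and 2434 copies at site 1 and 17, 22, 40, 14 and 15 at its second site. Its site 1 share stayed between 98.8% and 99.4%. Unigene72771 and Unigene87707, without a match, had shares of 99.0% to 99.3% and 96.2% to 98.3%, and Unigene91255, with sites 1, 4, 8 and 10 in use, had 94.8% to 97.9%. In these 4 unigenes the minor sites held a small part in each of the 5 libraries. Unigene86856 had most of its copies at site 3 and not at the site nearest the 3′ end. It matches rabaptin-5, an effector of the vesicle protein Rab5, and had 2176, 1745, 1275, 1456 and 3041 copies at site 3, beside 14, 8, 14, 14 and 27 at site 1. The nearest site held only 0.456% to 1.08% there, and site 2 had 7, 0, 12, 11 and 106 copies, highest on day 60.

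Unigenes with many used sites were few. Unigene12637 used sites 3, 4 and 5, with 798, 3103, 2573, 1429 and 644 copies at site 3 and at most 13 per library at the others. The tag of its site 3, CATGacaaaaaaaaaaaaaaa, is almost wholly A after the cut site and differs at 1 base from a tag of Unigene84963 that had 56387 copies. Of the copies of that site, 6534 had this tag, and whether any of them are misread tags of the neighbour was not tested. Unigene92498, whose match is an unnamed protein, had 5 used sites, numbers 1, 4, 5, 6 and 7. Its site 6 had 25, 38, 89, 53 and 129 copies, and its site 1 had 33, 50, 40, 27 and 72, so neither held nearly all copies in any library.

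As a base for the gene groups that follow, 567 of the 5924 unigenes with a used site had several. Of the 474 measured on 2 or more days, 80 switched and 230 shifted. The counts per group are too small to be set against these. Among gene groups of the pearl sac, shell matrix and mantle proteins had 32 unigenes, of which 17 had a used site and 3 had 2 or more. None of these 3 switched, and 1 shifted. The share of these 17 that had several used sites was not tested against other groups. Unigene1470 matches tyrosinase-like protein 1, a copper oxidase of the prismatic shell layer. It had 1117, 0, 0, 2606 and 0 copies at site 2 and 10, 0, 0, 16 and 0 at site 1. The site nearest the 3′ end held 0.610% on day 30 (0.349% to 0.989%) and 0.887% on day 10 (0.426% to 1.63%), so its copies came almost wholly from site 2 on both days on which it was listed. The site 2 tag ends in a run of A bases.
Unigene1470 site 1: CATGgctgctggtccaaatag
Unigene1470 site 2: CATGcagaggaagaaaaaaaa

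Unigene39109 matches mantle gene 5, expressed in the shell-forming mantle of pearl oysters, and was listed on days 10 and 30 only. On day 30 it had 102 copies at site 1, 67 at site 2 and 226 at site 3, against 74, 22 and 57 on day 10. The share of site 1 was 25.8% on day 30 (21.6% to 30.4%), against 48.4% on day 10 (40.2% to 56.6%), which is a shift. The tags of sites 1 and 2 differ at only 2 of 21 bases. Unigene89281, which matches mantle gene 1, had 6, 24, 399, 0 and 13 copies at site 3 and at most 28 at its other sites. Its nearest site held 0% on day 15 (up to 7.55%), 5.11% on day 20 and 13% on day 60.
Unigene39109 site 1: CATGatgactactgtgtgaag
Unigene39109 site 2: CATGatgaccactgtgtgaaa
Unigene39109 site 3: CATGtttttctggaatcgctc

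Proteases and their inhibitors had 42 unigenes, 17 with a used site and 5 with several. Of the 5, 1 switched, which is the proteasome subunit Unigene75762, taken up through the word protease in its name. The inhibitors were listed at abundance on days 10 and 30 only. Unigene58429, which matches antistasin, a leech inhibitor of blood clotting, had 1353 copies at site 1 and 49 at site 2 on day 30, against 947 and 7 on day 10. Its share of site 1 was 96.5% on day 30 and 99.3% on day 10. Unigene80425 matches a Kazal-type serine protease inhibitor. It had 506 copies at site 1, 32 at site 2 and 25 at site 3 on day 30, against 1660, 0 and 37 on day 10. Site 1 held 89.9% on day 30 (87.1% to 92.2%) and 97.8% on day 10. In both unigenes the tag of site 2 starts 6 bases before that of site 1 and overlaps it, and in Unigene80425 the tag of site 3 differs from that of site 1 at 2 bases. Such neighbouring sites lie closer together than the length of a tag.
Unigene58429 site 1: CATGtcgtccaagaccaagag
Unigene58429 site 2: CATGcgcatgtcgtccaagac
Unigene80425 site 1: CATGgacatcttcccttagag
Unigene80425 site 2: CATGggcatggacatcttccc
Unigene80425 site 3: CATGgacatcttccttcagag

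Stress and redox genes had 94 unigenes, 34 with a used site and 3 with several, of which none switched and 1 shifted. The one that shifted was Unigene85224, which matches alpha-crystallin B, a small heat shock protein. It had 0, 3, 35, 2 and 52 copies at site 1 and 2, 3, 60, 4 and 15 at site 2, with a share of 75.4% on day 60 (63.5% to 84.9%), against 33.0% on day 20 (24.2% to 42.8%). Unigene89867, a match to the chaperone HSP60, led with site 2 on day 15, when its share was 27.4%. Unigene88034, a match to a ferritin-like protein, had 40.9% on day 60 and 44.4% on day 15. The immune list had 55 unigenes, 21 with a used site and 1 with several. This was Unigene88153, a match to the peptidoglycan recognition protein PGRP-L, a sensor of bacterial cell walls, with 2, 58, 0, 64 and 106 copies at site 1 and shares of 92.1%, 90.1% and 94.6% on days 15, 30 and 60.

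Ribosome and translation genes had 122 unigenes, 44 with a used site and 4 with several. None switched and 2 shifted. Unigene79656 matches ribosomal protein L22e and had 69, 44, 1654, 1538 and 2 copies at site 1, with shares of 97.2%, 84.6% (71.9% to 93.1%), 99.8% and 99.9% on days 10 to 30. The second used site of Unigene79656, site 3, had 2 to 8 copies per library. Site 1 held most copies on days 10 to 30, while the level moved widely. On day 60 the unigene had 2 copies at site 1 and 8 at site 3, too few for a share. Unigene42240, a match to elongation factor 1-alpha, which brings transfer RNA to the ribosome, had a share of 66.7% on day 15 and 87.1% to 92.5% on the other days. Unigene72970, a match to ribosomal protein S15, had 100% on days 20 and 60 and 80% to 85.7% on the others. Both of these kept site 1 in the lead in every library.

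Transcription and splicing genes had 126 unigenes, 33 with a used site and 2 with several, both of which shifted and 1 of which switched (Unigene85712, above). The other was Unigene19547, a match to PHD finger protein 10, a subunit of chromatin remodelling complexes. It had 7, 67, 25, 18 and 100 copies at site 1 and 11, 21, 0, 9 and 0 at site 2, with a share of 76.1%, 100%, 66.7% and 100% on days 15, 20, 30 and 60. Energy metabolism had 141 unigenes, 38 with a used site and 2 with several, of which 1 shifted. Unigene89238, a match to malate dehydrogenase of the citric acid cycle, had 2, 0, 4, 4 and 16 copies at site 1 and 7, 23, 11, 0 and 0 at site 3. Its share was 64% on day 60 (42.5% to 82%), against 0% on day 15 (up to 10%). Unigene79942, a match to the delta subunit of ATP synthase, had 46.4% on day 60 and 41.0% on day 15.

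The lists of cilia and tubulin, cell division and cytoskeleton held 1 such unigene each. Unigene82585, a match to axonemal dynein heavy chain 5, a motor of beating cilia, had 11, 390, 6, 7 and 21 copies at site 1 and 5, 48, 12, 3 and 9 at site 2. Its share was 70% on day 60 (50.6% to 85.3%) and 89.0% on day 15 (85.7% to 91.8%). Unigene90308, a match to a subunit of replication factor C, which loads the sliding clamp for DNA synthesis, had 7, 0, 9, 18 and 0 copies at site 1 and 8, 61, 10, 0 and 87 at site 2, so all copies lay at site 2 on days 15 and 60. On day 30 all 18 lay at site 1, which is under the 20 copies needed for a share. The only entry of the cytoskeleton list, Unigene88292, was taken up through the word interacting and matches a GADD45-interacting protein. Lists of calcium handling (42 unigenes, 14 with a used site) and of extracellular matrix and adhesion (43, 11 with a used site) held none of the 567, and neither did those of hemocyte, germline, digestive and nervous markers.

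**Figure D5:**
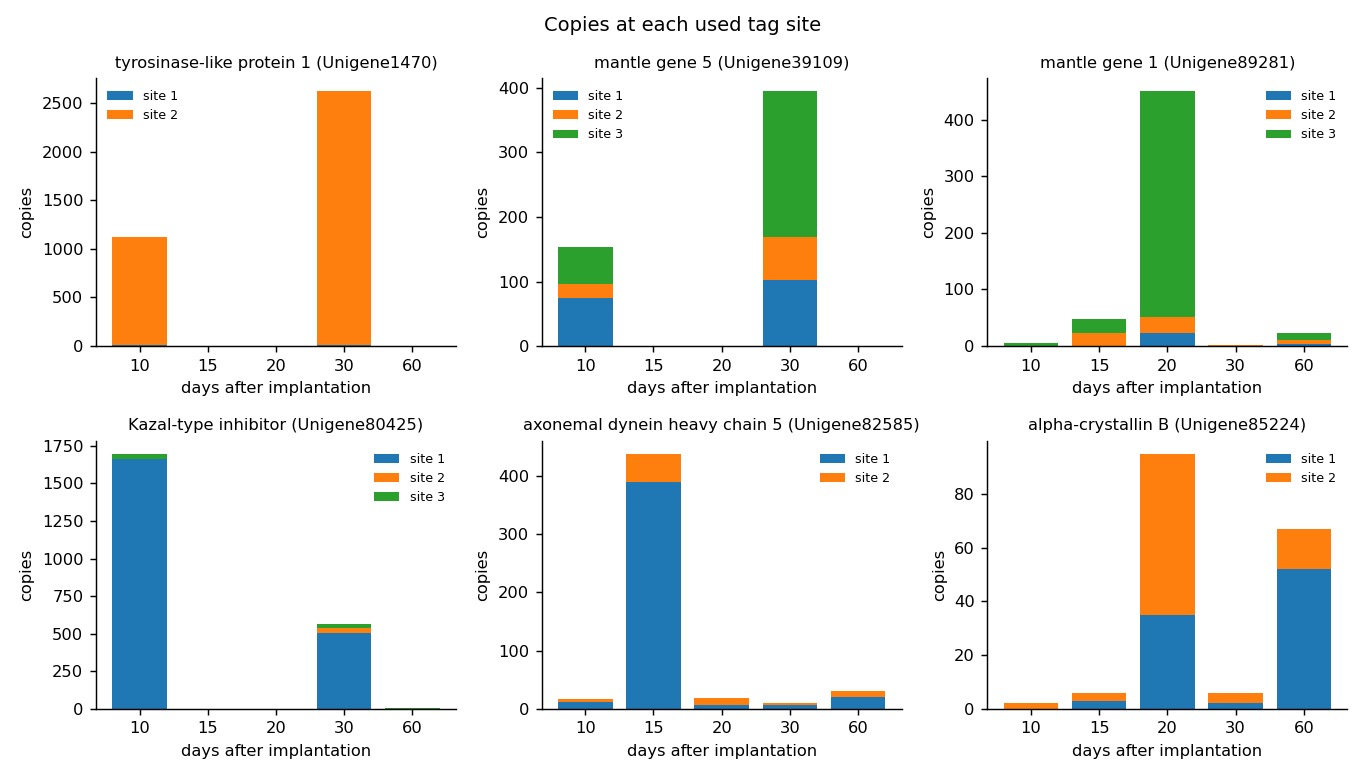
Copies per library (vertical axis) at each used site, stacked by site, by day after implantation (horizontal axis, days evenly spaced) for 6 unigenes with a named match. Unigene1470 has nearly all its copies at site 2 on days 10 and 30, Unigene89281 has 399 copies at site 3 on day 20, and Unigene85224 has more copies at site 2 on day 20 (60) and more at site 1 on day 60 (52).

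A site is counted as the sum of all its tags, and many sites had several. Of the 1230 used sites, 672 had 1 tag and 558 had 2 or more, up to 39. At 185 sites a second tag had 20% or more of the copies, and in 172 of these it differed from the first at 1 base. The leading tag within a site itself changed between days, by the same rule as for sites, at 55 of the 533 sites with 20 or more copies on at least 2 days (10.3%). The share over all unigenes was 10.3% of 2631 sites, so this is no result about the 567. It touched 51 unigenes, 14 of which were among the 80 that switched site.

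The next tags show the change within a site in Unigene10720, Unigene19547 and Unigene24872, and the capital marks the base that differs. The first tag of Unigene10720 site 1 had 347, 4037, 2, 977 and 2814 copies on days 10, 15, 20, 30 and 60, and the second had 2023, 0, 0, 0 and 0. The second tag led site 1 on day 10 alone, while the site as a whole led on days 10, 15, 30 and 60. Its site 2 had 60, 18, 0, 56 and 182 copies of its first tag and 74, 0, 121, 72 and 0 of its second, so that on day 20, the day of the switch, only the second was listed. Unigene19547 site 1 had 2, 0, 0, 15 and 100 copies of its first tag and 5, 67, 25, 3 and 0 of its second. Unigene24872, which has no match, had 404, 4060, 363, 256 and 71 of its first and 449, 94, 76, 0 and 383 of its second.
Unigene10720 site 1, first tag: catgtaattttggGagaggta
Unigene10720 site 1, second tag: catgtaattttggTagaggta
Unigene10720 site 2, first tag: catgaacCcaaggcacaaagt
Unigene10720 site 2, second tag: catgaacAcaaggcacaaagt
Unigene19547 site 1, first tag: catgagaacttttAcatagat
Unigene19547 site 1, second tag: catgagaacttttGcatagat
Unigene24872 site 1, first tag: catgaGaaaatatttcgtaga
Unigene24872 site 1, second tag: catgaAaaaatatttcgtaga

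What the sites share in sequence was examined only within the 21 bases of their leading tags. Tags of 2 used sites of the same unigene overlapped by 8 bases or more in 23 unigenes, 4 of them among the switching ones. In 3 unigenes the tags of a pair of sites differed at 2 bases, which are the mantle gene match Unigene39109, the Kazal match Unigene80425 and Unigene32965. At 26 used sites the leading tag lay 1 base from a tag of another unigene, which had more copies than that leading tag in 7. The hexamer AATAAA, the usual polyadenylation signal of animals, was searched on the strand of the tag. It was found in 21 of 567 tags of 3′-nearest sites (3.70%), in 30 of 663 tags of the other used sites (4.52%) and in 415 of 23066 tags of other unigenes (1.80%). On the opposite strand it was found in 0.705%, 1.06% and 1.40%. The tags of other unigenes come from all their listed sites, also those under 20 copies, so the groups differ in abundance.

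A run of A bases written AAAAAA was found in 2.12% of tags of the 3′-nearest sites, 3.02% of those of the other used sites and 1.92% of those of other unigenes. The GC content was 32.1%, 32.4% and 35.2% in the same order. These differences were not tested, and the tags of other unigenes again include sites under 20 copies. Since a tag covers only the bases just after the cut site, a missing match says only that the letters are not in this window.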

How the data were processed

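Tag profiles of pearl sac from 5 days, 1 library each, were analysed as deposited by the authors. Per the file headers, each table lists unigenes with a count, a TPM value, a protein match, and every tag (21 bases) with its own count and the site number described above. The deposited counts are whole and not normalized, and by their values the deposited TPM are those counts scaled to a tag total that was recovered as count over TPM in genes of at least 5000 copies. A TruSeq RNA kit is named in the labels' protocols, although such kits give no tags of this form. How reads were aligned and unigenes assembled is not given in the sources used here.

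Copies were summed over the tags of a site. A site was used with 20 copies over all libraries, and a share needed 20 copies in a library. Clopper-Pearson 95% intervals cover counting error only. The 95% intervals of the median shares were taken from the ranked shares by the binomial distribution. Scaled TPM used TMM factors (edgeR 4.0.16, R 4.3.3) of 0.948, 1.16, 0.902, 0.878 and 1.15 on days 10, 15, 20, 30 and 60. Site ratios were called with at least 10 scaled TPM and an interval wholly beyond 2-fold. Everything else was computed in Python 3.11.15 with pandas 2.3.3, scipy 1.17.1, numpy 2.4.6 and matplotlib 3.10.9. The calls were tried on simulated counts that held large set changes and counting error only. This trial says nothing about differences between oysters or library preparations.

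Unigenes and lists were chosen with earlier results of these data known. Named were the most abundant switching unigenes (up to 12 with and 8 without a named match), the 10 most abundant of all, the 5 most abundant with 3 or more sites, 3 on each side of the threshold, up to 4 per list and the 5 most abundant with opposite site calls; some of these are given only in ranges or left out of the text. Unigene69633, Unigene11528, Unigene61127, Unigene67167, Unigene92498, Unigene32965 and Unigene24872 were added after their values were seen. Alternatives changed the copy minimums, the tag sum, the lead rule, the scaling and the libraries used.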

Additional observations from a re-analysis of the deposited data

How the results depend on the processing

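With 10 copies per site 1070 unigenes would be taken and with 50 copies 249, in place of 567, and without the library of 1 day 429 to 480. With 50 copies per library the median shares were 79.2%, 73.1%, 80.6%, 80.8% and 78.9% on days 10, 15, 20, 30 and 60, and pooled copies gave 83.0%, 76.7%, 78.3% and 83.9% on days 10 to 30. The 80 switching unigenes became 47 with 50 copies per library, 144 by simple majority and 26 with an interval above 80%. The 47 and the 26 are among the 80 by construction, since these stricter settings can only drop unigenes. With the most abundant tag of each site only, 85 switched, of which 70 were among the 80. Without the library of 1 day the switching unigenes were 54 to 73. Without unigenes whose tags overlap or lie near those of others they were 72, and without those with a leading tag that changes 66, 2 settings chosen after seeing the data. With no minimum level, sites higher and lower numbered 144 and 196 (day 15 against 10), 192 and 176 (20 against 15), 142 and 125 (30 against 20), 95 and 143 (60 against 30) and 80 and 166 (60 against 10), and unigenes with opposite calls 24, 22, 13, 22 and 15. Scaling moved the balance of higher and lower site calls as given above. Higher minimums and fewer libraries leave fewer unigenes and sites by construction, and the lead rules differ in strictness; other causes were not tested. With the totals alone, the opposite site calls of Unigene24153, Unigene21165 (day 60 against 30) and Unigene1838 (day 60 against 10) and of Unigene61127 (day 20 against 15) were lost. No paired analysis was possible because each day has 1 library and the labels give no replicate numbers. Copies under 20 in a library limit the shares.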
